A study of Mus musculus with 4 samples.

Results

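Contacts of the epidermal differentiation complex that were enriched in both thymocyte libraries and in neither keratinocyte library numbered 197 among the 23395 contacts measured in every library. A contact is the ligation of 2 HindIII fragments, one read with a forward probe and one with a reverse probe, in chromosome conformation capture carbon copy (5C). The members were chosen by measured values: the observed 5C frequency divided by the frequency expected at that distance had to be at least 1.5 in both thymocyte libraries and at most 1 in both keratinocyte libraries. This selection took 0.842% of the contacts. The same rule with the cell types exchanged took 275 contacts, or 1.18%. Which set was the larger depended on the setting: the thymocyte set counted 101 against 80 at a threshold of 2, 223 against 220 with each ratio divided by its library's median, and 775 against 731 without thymocyte library 1. A ratio of at least 1.5 in both thymocyte libraries was met by 6.92% of contacts, and a ratio of at most 1 in both keratinocyte libraries by 23.0%. The ratios of the members are therefore given as a description, and nothing is tested on them.

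The study mapped 5.3 Mb of mouse chromosome 3 (mm9) in 2 libraries each of primary epidermal keratinocytes and primary thymocytes, both from C57BL/6 mice. The keratinocytes came from newborn skin and were plated for 15 hours at 32 degrees C in low calcium medium on collagen. The thymocytes were the whole thymic T cell population after lysis of red blood cells, so they mix stages of T cell development, and the methods used here give no age for these mice. No gene was altered in either group, and both were fixed with 1% formaldehyde for 10 minutes. The files hold no expression, so the identity of the cells could not be checked with marker genes.

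The epidermal differentiation complex holds genes that keratinocytes use to build the cornified layer of the skin: loricrin, involucrin, the filaggrin family, the small proline-rich (Sprr) and late cornified envelope (Lce) proteins and many S100 calcium-binding proteins. Thymocytes do not make a cornified layer. The locus is flanked by broadly expressed genes. Chromatin folds into topologically associating domains (TADs), within which fragments meet more often than across a border. The study divided this region into 7 TADs, of which TAD2 and TAD5 are gene-poor.

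The sequences below are the ligation junctions of 3 members, chosen because the results turn on them: the 2 members with the greatest contrast, and the one of greatest contrast between TAD1 and TAD2. Each is made of the 30 genomic bases of the forward probe, on the plus strand, followed by the 30 of the reverse probe, on the minus strand, and the capitals mark the restored HindIII site.
FOR_1426/REV_1691: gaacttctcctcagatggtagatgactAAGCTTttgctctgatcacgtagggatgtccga
FOR_176/REV_856: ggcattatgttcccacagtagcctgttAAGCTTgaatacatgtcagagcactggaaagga
FOR_99/REV_644: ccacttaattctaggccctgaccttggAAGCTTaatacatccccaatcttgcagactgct
All 6 of these probe sequences matched mm9 at every base, as did 737 of the 761 probes in the probe table used here.

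The ratios did not separate the libraries cleanly by cell type. Over the 23395 contacts, the log2 ratio correlated at 0.229 between the keratinocyte libraries and at 0.178 between the thymocyte libraries. It correlated at 0.306 between keratinocyte library 2 and thymocyte library 1, which is higher than either pair of one cell type. The other pairs gave 0.189 for keratinocyte library 2 with thymocyte library 2, 0.0367 for keratinocyte library 1 with thymocyte library 1, and 0.0609 for keratinocyte library 1 with thymocyte library 2. The log2 observed frequency, which also carries the fall with distance, correlated at 0.752 between the keratinocyte libraries, at 0.779 between the thymocyte libraries and at 0.603 to 0.769 between cell types. These correlations are across contacts that share fragments and describe the libraries only. The number of members, their distance and their shares within TADs, at TAD1 with TAD2 and TAD6 with TAD7, at promoters and at enhancers are therefore also given with each library left out. Leaving out a library only loosens the rule, so each such set contains all members chosen with the 4 libraries and is no independent repeat. The counts by gene, by gene group, by fragment and by bin of distance rest on all 4 libraries alone.

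The contrast of the members ran from slight to very large. Their ratios lay between 1.51 and 11.2 in thymocyte library 1, with a median of 2.33, and between 1.51 and 9.54 in thymocyte library 2, with a median of 2.51. The medians in keratinocyte libraries 1 and 2 were 0.659 and 0.745, beside 1.10 in each over all contacts. The lower thymocyte ratio was 2 or more for 101 members and under 2 for 96. The higher keratinocyte ratio was above 0.8 for 110 members and at most 0.5 for 14. Dividing the lower thymocyte by the higher keratinocyte ratio gave a median of 2.62, and 20 members reached 5. The observed frequency was higher in both thymocyte than in both keratinocyte libraries for 172 of the 197 members, beside 12.4% of all contacts. The remaining members met the rule through differences in the expected frequency as well. A q-value under 0.05 in both thymocyte libraries was met by 107 members, and 3.77% of all contacts met it. Another 63 members met it in 1 thymocyte library and 27 in neither, while no member met it in a keratinocyte library.

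The strongest contrast joined Tdrkh, which encodes a Tudor domain protein that binds PIWI proteins, with Setdb1, a histone H3 lysine 9 methyltransferase. This member, FOR_1426/REV_1691, links chr3:94224727-94227923, with an exon of Tdrkh in TAD6, to chr3:95158530-95160704, with an exon of Setdb1 in TAD7, over 931 kb. In thymocyte libraries 1 and 2 it was observed at 196.8 and 308.3, and in keratinocyte libraries 1 and 2 at 13.7 and 3.10. The ratios were 0.114 and 0.0503 in keratinocytes against 4.10 and 4.99 in thymocytes, so both thymocyte values were at least 36.1 times the higher keratinocyte one.

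The second joined the inflammatory S100 genes with involucrin. FOR_176, at chr3:90475366-90477851, lies outside genes within 5 kb of the start of S100a8, which encodes a subunit of calprotectin. REV_856, at chr3:92378027-92379194, lies outside genes beside the start of Ivl, which encodes a precursor of the cornified envelope. These fragments of TAD1 and TAD3 are 1900 kb apart. The ratio was 0.180 and 0.331 in keratinocytes and 11.2 and 7.95 in thymocytes. The observed frequency was 10.7 and 10.2 in keratinocytes, and 332.3 and 102.7 in thymocytes. The expected frequency was 59.48 and 30.76 in keratinocytes, and lower in thymocytes, at 29.75 and 12.92. The observed frequencies of the thymocyte libraries differed widely from each other, and both stood above those of the keratinocyte libraries.

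**Figure D1:**
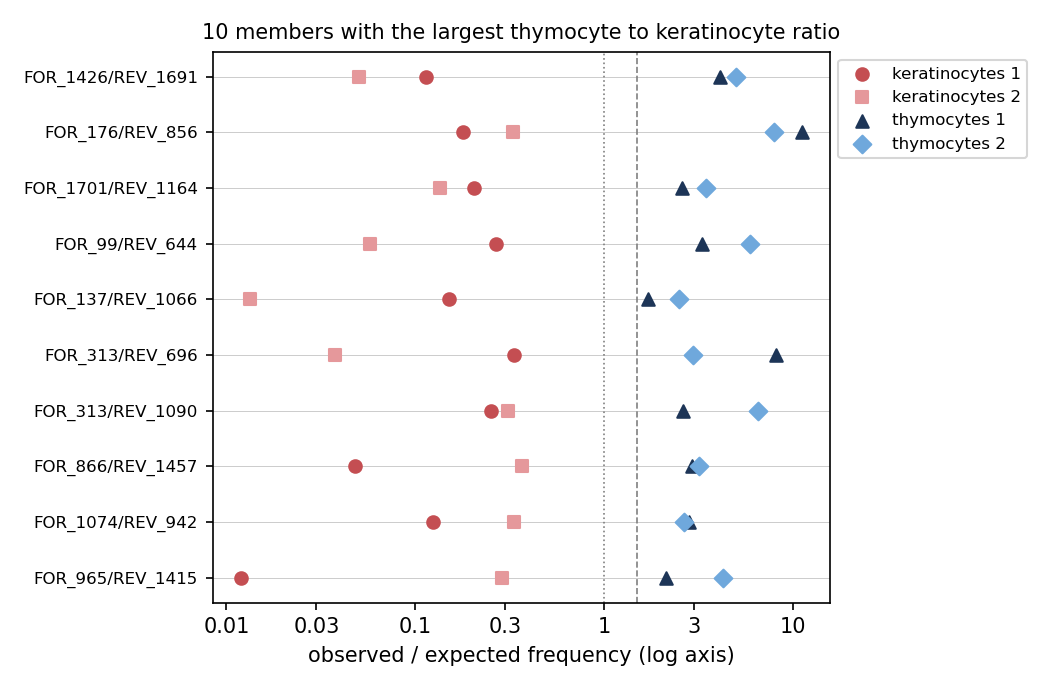
Observed over expected 5C frequency (log axis) in each library for the 10 members with the largest quotient of the lower thymocyte to the higher keratinocyte ratio. The dotted line is the keratinocyte limit of 1 and the dashed line the thymocyte threshold of 1.5; these lines set the separation, and the quotient falls from 36.1 in the top row to 7.44 in the bottom row.

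The other 8 of the 10 members of greatest contrast spanned 445 to 2758 kb, and none lay within a TAD by the keratinocyte borders. By the borders placed in thymocytes, FOR_313/REV_696 and FOR_1074/REV_942 each lay within a TAD. FOR_1701/REV_1164 joined fragments outside genes in TAD7 and TAD4, with ratios of 0.205 and 0.135 in keratinocytes and 2.60 and 3.49 in thymocytes. FOR_99/REV_644 joined Npr1, the receptor of atrial natriuretic peptide, in TAD1 with a fragment outside genes in TAD2, with 0.268 and 0.058 in keratinocytes and 3.32 and 5.94 in thymocytes. FOR_137/REV_1066 started in an exon of S100a16, within 10 kb of enhancers E2 and E3, and ended outside genes in TAD4. Its keratinocyte ratios of 0.151 and 0.0133 were low, but its thymocyte ratios of 1.71 and 2.50 were the lowest pair among the 10, and its q-value in thymocyte library 1 was 0.263. Its forward probe differs from mm9 at 2 of 30 bases.

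A single fragment outside genes in TAD2, FOR_313 at chr3:90886774-90888313, took part in 2 of the 10. With REV_696, which holds an exon of Prr9, a proline-rich gene of the cornified envelope region, the thymocyte ratios were 8.15 and 2.97. With REV_1090, near the start of Rptn (repetin, a filaggrin-like gene), they were 2.64 and 6.52. The keratinocyte ratios of these pairs lay between 0.0374 and 0.335. The remaining 3 were FOR_866/REV_1457 from TAD3 to an intron of Snx27, a sorting nexin gene of TAD6, FOR_1074/REV_942 from an exon of Hrnr (hornerin) to TAD3, and FOR_965/REV_1415 from TAD4 to TAD6. Their thymocyte ratios lay between 2.13 and 4.28 and their keratinocyte ratios between 0.0119 and 0.367.

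The members closest to the edge of the rule lay at the keratinocyte limit, and the contacts just past it lay at the thymocyte threshold. Just inside were FOR_1438/REV_1636, from Riiad1 to Tmod4, with 0.950 and 1.00 in keratinocytes and 2.73 and 2.49 in thymocytes, FOR_919/REV_1249, from Lce1h to Tdpoz3, with 0.999 and 0.960 against 1.55 and 2.86, and FOR_1087/REV_1038 in TAD4, with 0.997 and 0.953 against 1.81 and 1.57. The observed frequency of FOR_1087/REV_1038 was 470.7 and 279.3 in keratinocytes and 338.3 and 311.8 in thymocytes, so keratinocyte library 1 was the highest. Just outside were FOR_1545/REV_1564, from Pogz to Psmb4, FOR_83/REV_134, from Ints3 to the S100a14 and S100a16 starts, and FOR_882/REV_1024, from Lce1a1 to Crnn. In these 3 the lower thymocyte ratio fell just short of the threshold and rounds to 1.5, and their keratinocyte ratios were 0.401 to 0.805.

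Members lay farther apart than contacts in general, though not in every bin of distance. The median distance was 1358 kb for members, 934 kb for all contacts and 1808 kb for the exchanged set. Contacts over 1000 kb made up 55.3% of members and 48.2% of all contacts. The share of contacts that were members was 0.515% up to 50 kb, 0.592% at 100 to 250 kb and 0.575% at 250 to 500 kb, then 1.10% at 500 to 1000 kb, 0.697% at 1000 to 2000 kb and 1.18% beyond 2000 kb up to 3000 kb. Without each library in turn, the median distance lay between 1003 and 1658 kb.

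**Figure D2:**
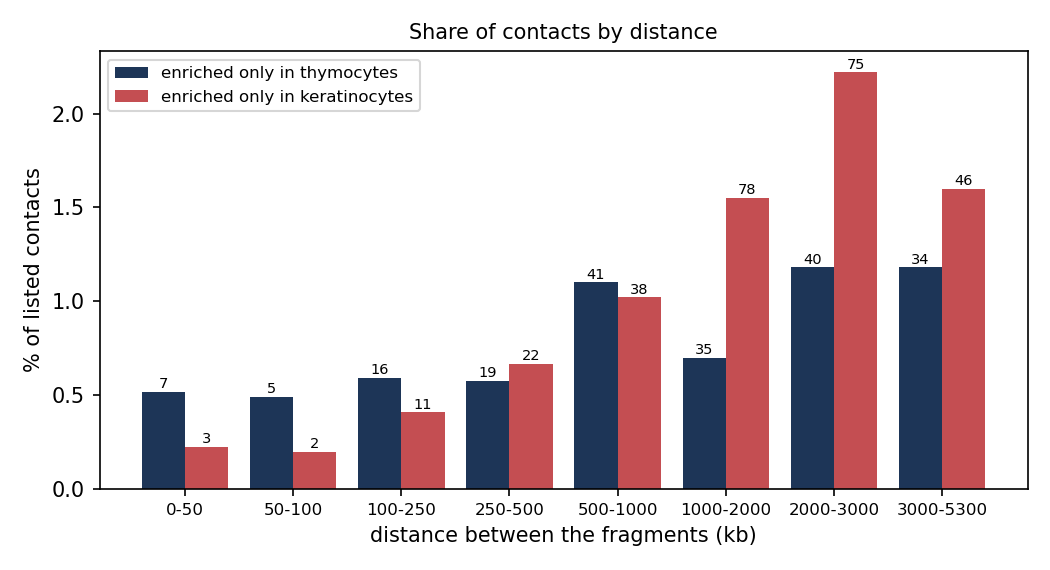
Share of the contacts listed in all 4 libraries that were enriched only in thymocytes (dark blue) or only in keratinocytes (red), in % by bins of distance in kb, with the number of contacts above each bar. Up to 250 kb the thymocyte bars are the taller (7 against 3 contacts up to 50 kb), and beyond 1000 kb the keratinocyte bars are (35 against 78 at 1000 to 2000 kb).

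Most members crossed a TAD border. Both fragments lay in the same TAD for 38 of the 197, or 19.3%, beside 31.5% of all contacts. By the borders placed in thymocytes these shares were 22.3% and 31.8%. With a library left out, the share by keratinocyte borders lay between 15.9% and 26.6%. Each of those sets contains these 197 members, so the repeat is partly fixed by the choice. Contacts beyond 1000 kb lie almost all between TADs, so the shares were also read within bins of distance. At 250 to 500 kb, 0.421% of contacts within TADs and 0.858% of those between TADs were members. At 500 to 1000 kb the shares were 0.765% (5 contacts) and 1.17% (36 contacts). The exchanged set ran the other way in both bins, with 0.981% and 1.38% within TADs against 0.0858% and 0.946% between them.

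Contacts between neighbouring TADs were members in 0.971% of cases (55 contacts), and those between TADs farther apart in 1.00% (104 contacts). In the exchanged set these shares were 0.742% and 1.81%. By the keratinocyte borders, no member lay within a gene-poor TAD or joined TAD2 with TAD5, among 487 and 102 contacts. Over all contacts 0.842% were members, so 102 contacts are too few to read this absence. By the borders placed in thymocytes, FOR_313/REV_696, FOR_671/REV_724 and FOR_689/REV_295 lay within TAD2. Gene-rich TADs joined with each other held 124 members (1.06%), and gene-rich with gene-poor TADs 35 (0.833%).

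Among the pairs of TADs with at least 100 contacts, TAD6 with TAD7 had the highest share of members, 20 of 1095 or 1.83%, and TAD1 with TAD2 the next, 11 of 608 or 1.81%. TAD3 with TAD5 followed with 2 of 122, or 1.64%. The exchanged set was scarce at the first and second of these pairs, with 3 contacts (0.274%) and 1 contact (0.164%), and it was most frequent at TAD1 with TAD4, with 42 of 1426 contacts or 2.95%. TAD1 with TAD2 and TAD6 with TAD7 together held 15.7% of members and 7.28% of all contacts. Their share of members was 13.6% without keratinocyte library 1, 13.5% without keratinocyte library 2, 12.4% without thymocyte library 1 and 11.6% without thymocyte library 2. Both pairs adjoin a border, and 9 of the 11 and all 20 members also crossed the border as placed in thymocytes.

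**Figure D3:**
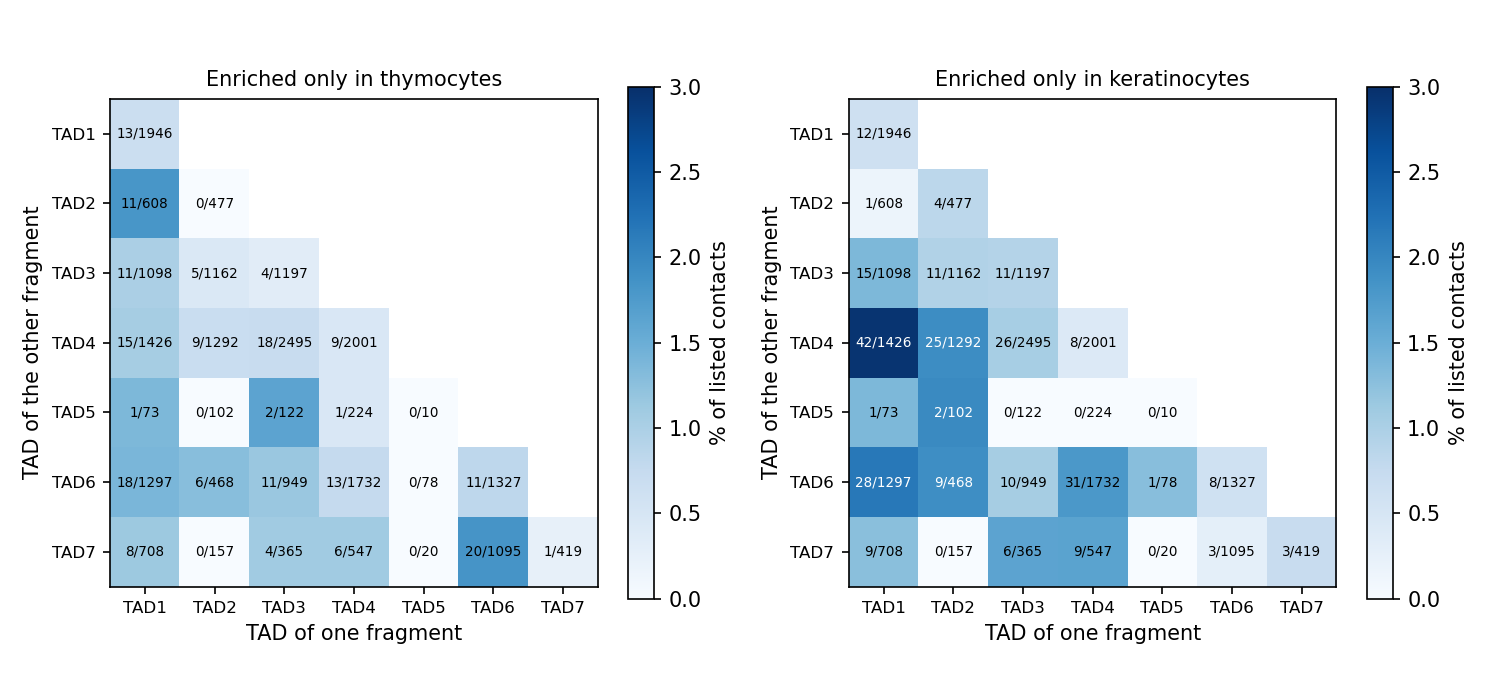
Share of the listed contacts (colour, in %) that were enriched only in thymocytes (left) or only in keratinocytes (right) for each pair of TADs, with the number of such contacts over the number listed. On the left the darkest cells with at least 100 contacts are TAD6 with TAD7 (20/1095) and TAD1 with TAD2 (11/608), and on the right TAD1 with TAD4 (42/1426).

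The keratinocyte and thymocyte conditions of the rule contributed differently at these pairs. Between TAD1 and TAD2, 42.1% of contacts had a ratio of at most 1 in both keratinocyte libraries, beside 23.0% of all contacts, and 7.57% reached 1.5 in both thymocyte libraries, beside 6.92%. The median ratio of all TAD1 to TAD2 contacts was 0.776 in keratinocyte library 1, 0.979 in keratinocyte library 2, and 0.981 and 0.980 in the thymocyte libraries, so keratinocyte library 1 alone stood apart. Without that library, 16 of the 608 contacts (2.63%) met the rule, beside 1.48% of all contacts. These 16 include the 11 members of the pair. The pairs were picked for their shares and every set without a library contains their members, so these shares are a description. Leaving out keratinocyte library 2, thymocyte library 1 or thymocyte library 2 gave 3.78%, 7.40% or 3.78% of these contacts, beside 2.18%, 3.31% or 2.47% of all. Between TAD6 and TAD7, 22.7% of contacts met the keratinocyte limit and 8.40% the thymocyte threshold. Medians there were 1.02 and 1.09 in keratinocytes and 1.06 and 1.02 in thymocytes, so the pair as a whole was close in the cell types. Leaving out keratinocyte library 1, keratinocyte library 2, thymocyte library 1 or thymocyte library 2 gave 2.83%, 4.20%, 4.66% or 4.02% of the TAD6 to TAD7 contacts, beside 1.48%, 2.18%, 3.31% or 2.47% of all contacts.

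The 20 members between TAD6 and TAD7 spanned 191 to 943 kb. Both fragments lay within 5 kb of a start site in 11 of them and 1 fragment did in the other 9, and 37.5% and 86.8% of all contacts of this pair had both or at least 1. Setdb1 took part through REV_1691 in 3, with Tdrkh, with Pi4kb (a phosphatidylinositol 4-kinase) and with a fragment outside genes. The Pi4kb contact, FOR_1595/REV_1691, had ratios of 0.869 and 0.737 in keratinocytes and 3.12 in both thymocyte libraries. FOR_1582/REV_1661 joined an intron of Gabpb2, a subunit of the GA-binding protein, with a fragment outside genes near Rfx5, a regulator of MHC class II genes. Each fragment lay within 5 kb of an annotated start site of its gene. The ratios of this member were 0.544 and 0.820 in keratinocytes and 4.08 and 2.96 in thymocytes.

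The 11 members between TAD1 and TAD2 spanned 278 to 1723 kb, and 8 of them had 1 fragment within 5 kb of a start site. Loricrin, the main protein of the cornified envelope, was in 2 of them: its gene lies in FOR_683, chr3:91876919-91893349, at the TAD2 side of the border with TAD3. FOR_683/REV_69, to an exon of Gatad2b (a subunit of the NuRD complex), had ratios of 0.091 and 0.486 in keratinocytes and 2.88 and 7.42 in thymocytes. FOR_683/REV_84, to an exon of Ints3 (an Integrator subunit), had 0.935 and 0.942 in keratinocytes and 4.39 and 2.14 in thymocytes. Npr1 fragments took part in 3, and an exon of S100a9, the partner of S100a8 in calprotectin, in 1.

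Tdrkh had the fragments with the most members. FOR_1424, at chr3:94213481-94221843 with the start of Tdrkh, took part in 6 of its 142 contacts. Of these, 3 reached TAD7, at Pip5k1a and Vps72, at Setdb1 and at Gabpb2, with thymocyte ratios of 1.80 to 3.66 and keratinocyte ratios of 0.394 to 0.922. FOR_1426, also with an exon of Tdrkh, took part in 5 of only 40 contacts, or 12.5%. The median ratio of its contacts, its members included, was 0.820 and 0.931 in keratinocytes and 1.70 and 1.54 in thymocytes. Without its 5 members the medians were 0.876 and 1.07 in keratinocytes and 1.5 and 1.09 in thymocytes, so keratinocyte library 2 and thymocyte library 2 were then close.

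The partners of these 11 members reached from 50 to 3897 kb. Nearest were a fragment with the start of Celf3, an RNA-binding splicing regulator, and one within 5 kb of an annotated start site of Snx27. FOR_1426/REV_1441, at Celf3, had ratios of 0.488 and 0.827 in keratinocytes and 3.03 and 2.29 in thymocytes, and FOR_1426/REV_1464, at Snx27, had 0.439 and 0.913 against 3.86 and 2.43. The farthest was FOR_1424/REV_123, at the starts of S100a1 and S100a13 in TAD1, with 0.554 and 0.886 against 2.07 and 2.41. Both fragments also met Pi4kb. FOR_1424/REV_1605, with exons of Pi4kb and Zfp687, had 0.429 and 0.948 against 2.65 and 1.75, and FOR_1426/REV_1599, in an intron of Pi4kb, 0.880 and 0.588 against 1.85 and 1.99. FOR_1424/REV_1107 and FOR_1426/REV_1159 each reached a fragment outside genes in TAD4. The thymocyte libraries differed most from each other at the first of these, with 1.83 and 4.04.

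**Figure D4:**
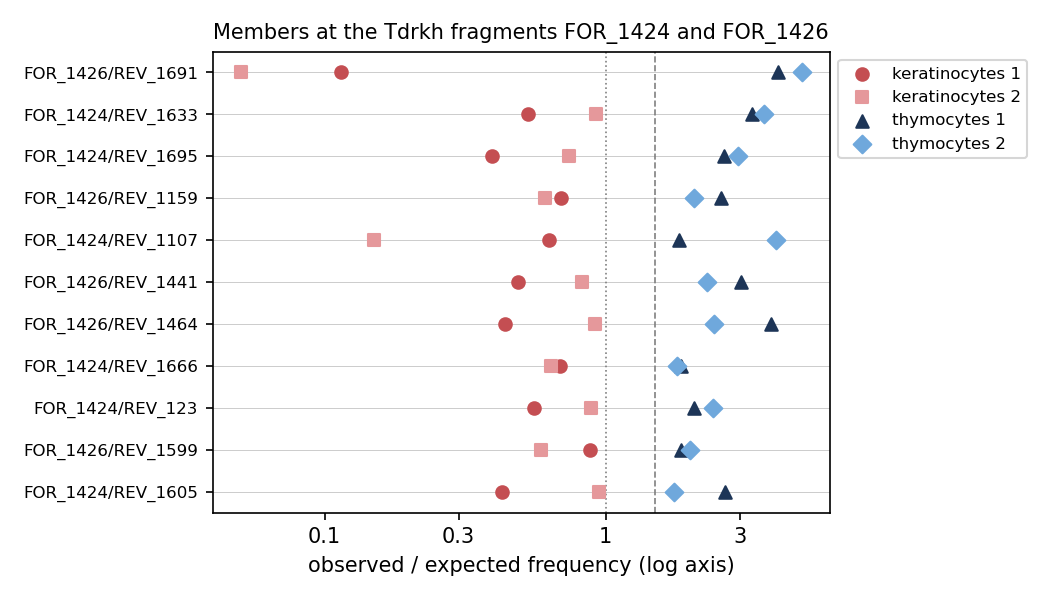
Observed over expected 5C frequency (log axis) in each library for the 11 members that end in FOR_1424 or FOR_1426, both of which hold Tdrkh exons. All thymocyte points lie right of the dashed line at 1.5 and all keratinocyte points left of the dotted line at 1, as the rule requires, and the keratinocyte points of FOR_1426/REV_1691 (0.114 and 0.0503) lie farthest left.

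The other fragments with 5 members were REV_1559 in Pogz, REV_829 outside genes in TAD3 and REV_981 at Crct1, a cysteine-rich gene beside the Lce genes. At REV_829 the highest thymocyte ratios, 5.11 and 6.57, were with FOR_171 near S100a7a (psoriasin), whose keratinocyte ratios were 0.782 and 0.696. At REV_981 they were with FOR_21 in TAD1, at 2.87 and 9.54, against 0.766 and 0.415. The 9.54 rests on a low expected frequency of 10.38 in thymocyte library 2, beside 61.64 in thymocyte library 1. The observed frequencies were 99.07 and 176.9 in these 2 libraries. The median ratios over all contacts of these 3 fragments were no higher in thymocytes than in keratinocytes for REV_1559 (0.764 and 0.836 against 1.03 and 0.862) and lay between 0.537 and 1.10 for the others. Members were spread thinly: 249 of 640 fragments had at least 1, of which 161 had only 1, and 38 had 3 or more. Of the 197 members, 168 shared a fragment with another, so they are not independent.

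Promoter fragments took part in most members. At least 1 fragment lay within 5 kb of a start site of a protein-coding gene in 146 members, or 74.1%, beside 66.6% of all contacts and 66.9% of the exchanged set. Both fragments did in 47, or 23.9%, beside 18.5% and 16.4%. With a library left out, the share with at least 1 promoter lay between 70.7% and 72.1%, and that with both between 20.1% and 22.3%. The fragments of members held an exon in 41.4% of cases, beside 29.0% over all contacts, and lay outside genes in 49.0%, beside 61.8%. For keratinocyte enhancers, as the study placed them, the share depended on the distance allowed. Within 10 kb of one, 45 members, or 22.8%, had a fragment, beside 22.9% of all contacts, and with a library left out this share lay between 23.6% and 28.5%, the highest without thymocyte library 2. With an enhancer overlapping a fragment the share was 9.64%, beside 6.14%. An enhancer faced a promoter on the opposite fragment in 19 members (9.64%), beside 10.2% of all contacts.

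By gene, Pogz, which encodes a zinc finger protein, had the most members, 11 of 893 contacts over 15 promoter fragments (1.23%). Lce1a2 and Pi4kb had 8 each, or 1.51% and 0.881% of their contacts. Riiad1, Mrpl9 (a mitochondrial ribosomal protein), Gabpb2 and Npr1 had 7 each, at 2.76%, 1.92%, 1.32% and 1.18%, and Tdrkh and Nup210l 6 each, at 4.17% and 2.65%. The order by number follows the number of fragments as well as the share, since Pogz has many start sites. In the exchanged set Pogz had 9 contacts, Lce1a2 3, Pi4kb 6, Riiad1 4, Mrpl9 6, Gabpb2 10, Npr1 7, Tdrkh 1 and Nup210l 2.

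The keratinocyte gene groups were mixed. The 7 filaggrin-like genes had 9 members in 1885 contacts (0.477%) and the 11 Sprr genes 7 in 1767 (0.396%), both below the 0.842% of all contacts. The 13 Lce genes had 24 in 2983 (0.805%), and the 2 S100 genes of TAD4 had 3 in 510 (0.588%). The 11 annotated S100 genes of TAD1 had 16 in 1251 (1.28%), and the 7 other cornified envelope genes, which include Lor and Ivl, 14 in 875 (1.60%). These last 2 groups were also frequent in the exchanged set, at 1.84% and 1.71%, beside its 1.18% of all contacts. The filaggrin-like genes had 27 contacts of the exchanged set (1.43%), the Sprr genes 17 (0.962%), the Lce genes 28 (0.939%) and the S100 genes of TAD4 5 (0.98%). The 18 genes of TAD6 had 52 in 3641 (1.43%), the 18 of TAD7 30 in 2446 (1.23%) and the 17 genes of TAD1 other than S100 genes 28 in 2784 (1.01%). In the exchanged set these had 45 contacts (1.24%), 24 (0.981%) and 39 (1.4%), so the genes of TAD1 were more frequent there. Tdpoz3, the Tdpoz gene with a promoter fragment here, had 1 in 82. Gene lists share fragments where genes adjoin.

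Involucrin had 5 members among 231 contacts (2.16%), and the exchanged set had 3. Besides the S100a8 contact, REV_854 with an exon of Ivl reached 2 fragments of TAD4 and 1 of TAD6, and REV_856 reached Pi4kb. FOR_1052/REV_854, over 676 kb, was even between replicates, with 0.908 and 0.895 in keratinocytes and 3.32 and 3.27 in thymocytes. Filaggrin (Flg), which binds keratin filaments, had 1 member, FOR_1061/REV_799, to the start of Sprr2h over 881 kb. Its thymocyte ratios of 1.52 and 1.57 were close to the threshold, against 0.863 and 0.523 in keratinocytes.

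The fragments of members were close to the others in size and base composition. Their median length was 2154 bp and their median GC content 42.9%, beside 2110 bp and 41.6% over the fragments of all contacts. The median number of contacts listed for these fragments was 105, beside 112 over all contacts.

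The choice repeated in part in a library that it did not use. Of 578 contacts chosen with thymocyte library 1 and both keratinocyte libraries, 34.1% also reached 1.5 in thymocyte library 2, beside 12.0% of the 4804 contacts that met the keratinocyte limit but not the threshold in thymocyte library 1. Of 775 chosen with thymocyte library 2, 25.4% reached it in thymocyte library 1, beside 8.27%. The median ratio of the chosen contacts in the other thymocyte library was 1.04 and 0.984, and most of them fell short of 1.5 there. From the keratinocyte side, the comparison was with contacts past both thymocyte thresholds but above 1 in the keratinocyte library used. Of contacts chosen without keratinocyte library 2, 38.6% were at most 1 in it, beside 13.4% of that comparison. Over all contacts this share was 40.3%, so the chosen contacts did not exceed it. Of those chosen without keratinocyte library 1, 56.9% were at most 1 in that library, beside 24.7% of the comparison and 43.5% of all contacts.

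Contacts beside the members, which the rule did not use, differed in the same direction but not beyond what 2 libraries against 2 can show. A neighbour joins the next forward and the next reverse fragment to either side, so it shares no fragment with its member. The 188 listed neighbours that were not members themselves were compared with the mean of all contacts in the same 100 kb bin of distance. Their mean log2 ratio stood at -0.17 and -0.00212 relative to that mean in keratinocyte libraries 1 and 2, and at 0.16 and 0.02 in thymocyte libraries 1 and 2. Both thymocyte values exceeded both keratinocyte values, and the difference was 0.18 on the log2 scale (two-sided exact permutation test over libraries, p = 0.333, the smallest p this design can give). Without thymocyte library 1 it was 0.10, and without keratinocyte library 1 it was 0.09, in both cases with an exact permutation p of 0.667. The 274 neighbours of the exchanged set differed by -0.18 (exact permutation test, p = 0.333).

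Contacts that 1 keratinocyte library did not list gave a second set, chosen after seeing the data, with the rule applied to the other 3 libraries. Of 2655 contacts missing from keratinocyte library 2 alone, 136 (5.12%) met it, and of 3592 missing from keratinocyte library 1 alone, 68 (1.89%) did. Between TAD6 and TAD7 the shares were 8.33% (6 of 72) and 1.69% (1 of 59), and between TAD1 and TAD2 3.70% (4 of 108) and 3.11% (5 of 161), so neither pair stood above the whole in both sets. Within TADs they were 3.33% and 1.61%, lower than in all such contacts both times. A further 1463 contacts were listed in both thymocyte libraries and in no keratinocyte library, and 155 of them (10.6%) reached 1.5 in both thymocyte libraries.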

How the data were processed

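By the study's methods, the authors mapped reads to the 5C probes with Bowtie and counted pairs of a forward and a reverse probe. Probes that deviated were dropped, as were single contacts far above their surroundings, and a Loess fit then scaled every probe within its library. The deposited signal columns hold this corrected frequency, the frequency expected at the distance and its standard deviation. The deposited score is the Z score, and the deposited p-value and q-value rest on a Weibull fit made per library. Read counts are not used here. Depth in reads is therefore unknown, and frequencies carry no counting interval. Keratinocyte libraries 1 and 2 list 95692 and 67210 contacts, thymocyte libraries 1 and 2 list 45861 and 53420, and 23395 are listed in all 4.

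The ratio is the observed over the expected frequency. Fragments were placed by midpoint with the study's average keratinocyte borders, start sites within 5 kb came from GENCODE M1 protein-coding genes (mm9), and 16 keratinocyte enhancers within 10 kb came from the study. Shares of members are set beside those of all contacts with no test, because the rule used the ratios and contacts share fragments. The members, gene lists and named items were chosen with earlier results of these data known. Named are the 10 members of greatest contrast, 3 on each side of the threshold, the 5 fragments and 10 genes with most members, the 3 pairs of TADs with the highest share among those with at least 100 contacts, and Lor, Ivl and Flg; 1 item that this choice takes is not reported here. The study calls the 2 libraries of a cell type biological replicates, and whether they came from separate animals is not given in the sources used here. Replicate numbers were not taken as pairs. The code of the rule and of the neighbour statistic was checked on simulated data with planted shifts. How many members would arise without any difference was not simulated. Python 3.11.15, pandas 2.3.3 and SciPy 1.17.1 were used. The alternatives are other thresholds, median-scaled ratios, Z scores, other borders, other distances to start sites and enhancers, and each library left out.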

Additional observations from a re-analysis of the deposited data

How the results depend on the processing

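Of 76 values recomputed under other settings, 59 were counted as unchanged and 17 as moved. Shares and the median distance had to stay within an interval, and the number of members within a factor of 1.5. The neighbour difference had only to keep its sign, and it ranged from 0.09 to 0.35. The number of members was 348 with the threshold lowered by 0.25, 101 at a threshold of 2, 87 with a keratinocyte limit of 0.8 and 312 with 1.2, and 346 to 775 with a library left out, since fewer libraries then have to meet the rule. It was 223 with ratios divided by each library's median, when the exchanged set fell to 220. The exchanged set, larger as reported and in most other settings, was also the smaller at a threshold of 2 (80) and without thymocyte library 1 (731 against 775). In contacts not listed in keratinocyte library 1, an alternative added after seeing the data, 68 met the rule and 52 the exchanged one. In those not listed in keratinocyte library 2, 136 met the rule and 219 the exchanged one. The share of members with a promoter was 80.2% at a threshold of 2, 86.8% (83.3% of all contacts) within 10 kb and 31.5% (23.1%) with a start site inside the fragment. The share with an enhancer was 16.2% (14% of all contacts) within 5 kb and 9.64% (6.14%) with overlap. With a library left out, the share within TADs was 15.9% to 26.6% and that at TAD1 with TAD2 or TAD6 with TAD7 11.6% to 13.6%. Those sets contain all the members, so these values are no independent repeat. At a threshold of 2, 30.0% of the contacts chosen with thymocyte library 1 also reached it in thymocyte library 2.

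With the replicate number as a block, the neighbour difference was 0.18 (exact sign-flip permutation test, p = 0.5, the smallest it allows), being 0.33 in number 1 and 0.02 in number 2. The differences between replicates 1 and 2 correlated at -0.0883 across contacts between the cell types, so the numbers do not pair the libraries. The neighbour difference lay between 0.09 and 0.26 with a library left out. With Z scores it was 0.35 (exact permutation p = 0.667), and with the next probed fragment of either kind, added after seeing the data, 0.14 (exact permutation p = 0.667). The number of libraries and the unlisted contacts limit what these values can show.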
